A study of Mus musculus with 36 samples.

Results

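Untreated colons of Il17rc-deficient mice (KO) were compared with untreated wild-type colons (WT). The 4 KO and 4 WT arrays of this comparison were taken by their sample titles, and they are 8 of the 36 arrays of the series. All 8 came from mice 6 to 8 weeks old that received no agent, at day 0, and the labels call them healthy. The other 28 arrays are from mice of the same genotypes in a colon tumor protocol with azoxymethane, a carcinogen, and dextran sulfate sodium, which injures the colon lining, and were sampled at day 7, at day 15 and as tumors. They enter here through the shared estimate of spread and where the same genotype comparison is set beside the untreated one. The genotype is given only as IL-17RC_KO, with no allele, breeding or housing stated in the labels. Nothing in the labels says that each array is a separate animal, so the p-values reflect only how far these samples spread.

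IL-17RC is the receptor subunit that pairs with IL-17RA to bind IL-17A and IL-17F, cytokines of type 17 lymphocytes. In the gut this pathway acts mainly on epithelial and stromal cells, where it induces chemokines, antimicrobial proteins and genes of mucosal defence. Interferons act through a different route: interferon gamma induces genes mainly through promoter sequences called GAS elements, and type I interferons mainly through ISRE elements. In whole tissue, fewer cells of a type and less RNA per cell cannot be told apart.

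Each value is an intensity of a microarray probe set, and each gene is represented by its brightest probe set. Over all arrays the intensities ran from 4 to 14185 with array medians of 14 to 16, so a mean below 16 is treated here as near background. Such means were found for 36% of the 17097 genes. Log2 differences are KO minus WT after adding 1 and quantile normalization, with the standard error of limma, and adjusted p-values are Benjamini-Hochberg values over all 17097 genes with a threshold of 0.05. Genes of families with near-identical members, such as the interferon-inducible GTPases, class I histocompatibility genes and immunoglobulins, can share probe signal.

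The tissue label was checked on markers. The colonocyte anion exchanger Slc26a3 had intensities of 1907 to 2810 in KO and 1276 to 2739 in WT, carbonic anhydrase Car1 of 3143 to 3843 and 3997 to 6395, and the brush border protein Vil1 of 2103 to 2366 and 1043 to 1689. Xist was bright in all 8 arrays (1684 to 2303), and the Y-linked gene Eif2s3y stayed at 7 to 9. Slc26a3, Car1, Cxcl1, Igtp, Irgm1, Gbp2, Gbp3, Gbp7, Mx1, Psmb5, Psmb6, Psmb7, Psmb10, Cd8a, Ms4a1, Ly6d and Trim31 were named after their values were seen, as were the genes outside the lists in the closing observations. Krt5, a keratin of stratified squamous epithelium, was at 6043 in WT replicate 1 and at 2199 in WT replicate 4, and at 22 or less in the other 6 untreated arrays. Krt14 was at 9933 and 2423 in those WT arrays, at 13 and 17 in the other two WT arrays and at 11 to 48 in KO. Results are therefore also given without the 7 arrays of the series that had Krt5 above 100. In untreated tissue that setting leaves WT replicates 2 and 3 against all 4 KO arrays.

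The targeted gene and its neighbours are described first. Il17rc was read at 7, 15, 10 and 9 in KO replicates 1 to 4 and at 271, 330, 318 and 248 in WT replicates 1 to 4. All 4 KO arrays lay near background and far below the WT range. Il17re, which encodes the receptor subunit for IL-17C and lies next to Il17rc on chromosome 6, was at 73, 72, 93 and 88 in KO and at 170, 145, 152 and 215 in WT. The groups did not overlap, and the difference was -1.03 ± 0.23 (limma, adjusted p = 0.00787). Creld1, the measured gene on the other side of Il17rc, was at 27, 29, 31 and 26 in KO and at 46, 54, 41 and 47 in WT (-0.65 ± 0.17, adjusted p = 0.034). Of the 10 measured genes on each side of Il17rc, these 2 passed the threshold and 18 did not, with differences of -0.28 to 0.62 and a median of -0.01 over all 20. Both calls were lost without the arrays with Krt5 above 100, where the differences were -0.84 (adjusted p = 0.164) and -0.67 (0.22). The call of Creld1 was also lost when any single array other than WT replicate 3 was left out.

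The other receptor subunits and the adaptor of the pathway did not pass the threshold. Il17ra, the partner subunit, was at 76 to 94 in KO and 70 to 91 in WT, and Traf3ip2, which encodes the adaptor Act1, at 165 to 180 and 180 to 212. Il17rb, a subunit for IL-25, was at 18 to 20 in KO and 16 to 20 in WT, and Il17rd at 23 to 32 and 22 to 64. Of 9 measured genes of this list, 0 were higher and 2 lower, with a median difference of -0.02 beside 0.00 for all genes.

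Type 17 cytokines and their regulators were not called in either direction, in 0 of 13 measured genes against 2.27% of all genes. Of the 13, 7 had means below 16 in both groups. The cytokine Il17a was at 8 to 14 in KO and 9 to 12 in WT, and Il23a, a subunit of the cytokine that sustains type 17 cells, at 8 to 9 in both groups. Such dim signals give no information on a difference. Rora, a transcription factor of type 17 cells that other cells also express, was at 21 to 27 in KO and 24 to 75 in WT (-0.76 ± 0.37, adjusted p = 0.378).

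Among 33 measured IL-17-induced genes, 1 was higher, 0 were lower and the median was 0.02. Of all genes 1.78% were higher and 0.485% lower, so few calls are usual for a list of this size. The member that passed was the monocyte chemokine Ccl7, at 83, 187, 80 and 94 in KO and at 15, 19, 14 and 16 in WT (2.65 ± 0.42, adjusted p = 0.000104). The epithelial chemokine Ccl20 was at 13, 35, 39 and 30 in KO and at 13, 19, 17 and 22 in WT (0.66 ± 0.53, adjusted p = 0.677). Lcn2, which encodes an iron-sequestering antimicrobial protein, was at 15 to 27 in KO and at 89, 14, 19 and 1566 in WT, high in the same WT arrays as Krt5 (-1.94 ± 1.36, adjusted p = 0.612). The neutrophil chemokine Cxcl1 was at 8 to 20 in KO and 8 to 26 in WT.

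Over all genes, 388 of 17097 differed between untreated KO and WT colon, which is 2.27% of the genes tested. In KO 305 were higher (1.78%) and 83 lower (0.485%), and 2190 had an unadjusted p under 0.05. These shares stand beside every count by list given here. Some genes are in several lists, so the counts of different lists are not separate results. Of the higher genes, 11 differed by more than 4 log2 units, 69 by 2 to 4, 103 by 1 to 2 and 122 by at most 1. Of the lower genes, 2 differed by more than 4, 4 by 2 to 4, 23 by 1 to 2 and 54 by at most 1. All KO arrays lay above all WT arrays for 292 of the 305 higher genes and below them for 77 of the 83 lower genes. Among all 17097 genes, called or not, 5.97% had all KO arrays above all WT arrays and 4.24% had them below. The genes were called on these same arrays, so the lack of overlap describes the calls and adds no separate support. The WT mean was below 16 for 62 of the higher genes, and the KO mean for 21 of the lower ones, so the size of those differences depends on the added constant. For Ido1 it was 6.82 with 1 added and 5.68 with 16 added, and for Cxcl9 5.03 and 4.03.

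**Figure D1:**
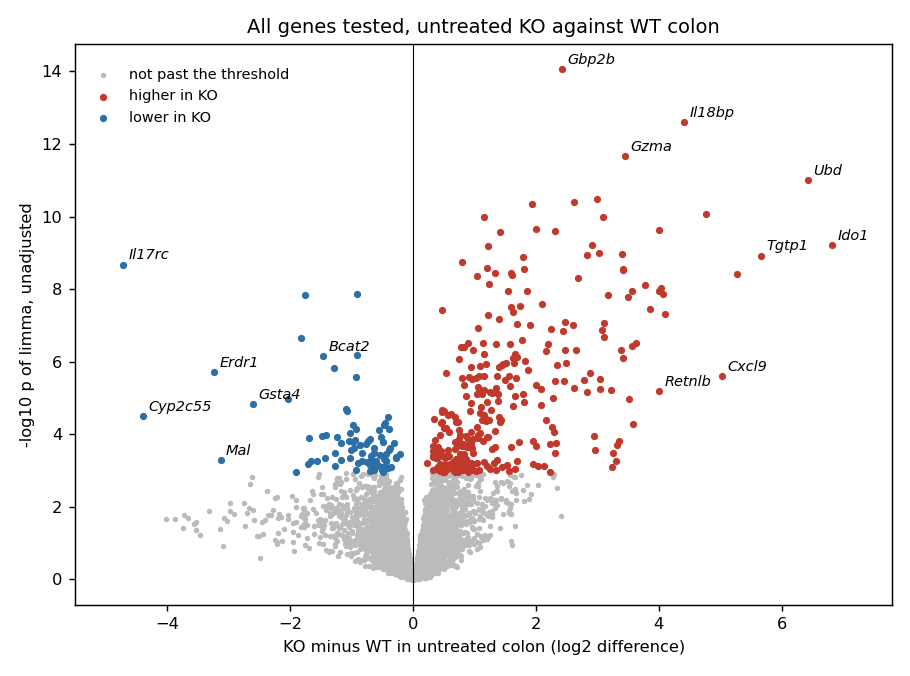
Each point is 1 of 17097 genes, placed by its log2 difference between untreated KO and WT colon and by its unadjusted limma p on a -log10 scale. The 305 higher genes (red) reach a log2 difference of 6.82, and the 83 lower genes (blue) reach -4.72 at Il17rc itself.

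The count fell to 256 (182 higher, 74 lower) without the arrays with Krt5 above 100, and 193 of the 388 genes were called in both settings, 165 higher and 28 lower. With a block for the title-code letter it was 227 (196 higher, 31 lower). The labels do not say what the letter stands for, and letters C, D and G hold KO arrays only and B holds WT arrays only among the untreated arrays.

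Interferon ligands were dim. Ifng, the gene of interferon gamma, was at 12, 12, 12 and 15 in KO and at 9, 10, 9 and 8 in WT. The groups did not overlap, but every array was below 16 (0.46 ± 0.10, adjusted p = 0.00463, and 0.0888 without the arrays with Krt5 above 100). Ifnb1 was at 8 to 9 in KO and 7 to 9 in WT. Of 16 measured ligands and inducers, 12 had means below 16 in both groups, 2 were higher and 0 lower, and the median was 0.09. The second of the 2 was Il18bp, the soluble binding protein that neutralises interleukin-18, at 266, 329, 419 and 432 in KO and at 23, 14, 13 and 13 in WT. Its lowest KO array was far above the highest WT array (4.41 ± 0.37, adjusted p = 2.12e-09). Il18 itself was at 1202 to 1399 in KO and 977 to 1770 in WT (-0.04 ± 0.20).

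Interferon receptors and kinases did not pass, whereas several transcription factors and feedback genes were higher in KO. Ifngr1 was at 1059 to 1476 in KO and 680 to 1185 in WT (0.31 ± 0.16, adjusted p = 0.425), Ifngr2 at 265 to 290 and 178 to 327, and Jak2 at 480 to 534 and 354 to 452 (0.32 ± 0.12, adjusted p = 0.202). The class I transactivator Nlrc5 was at 102, 148, 175 and 219 in KO and at 16, 9, 9 and 9 in WT (3.77 ± 0.48, adjusted p = 3.55e-06). The class II transactivator Ciita was at 41, 75, 60 and 49 in KO and at 14, 11, 11 and 13 in WT (2.09 ± 0.29). For both transactivators WT lay near background and no KO array reached down to it.

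Irf1, a transcription factor induced through GAS elements, was at 1030, 1209, 1477 and 1469 in KO and at 472, 369, 395 and 373 in WT (1.66 ± 0.27, adjusted p = 0.000125). Irf7 differed by 2.31 ± 0.41, Irf8 by 1.36 ± 0.25, Irf9 by 1.62 ± 0.26 and Batf2 by 2.08 ± 0.38, with no overlap between groups. Among feedback inhibitors, Usp18 was at 34, 73, 146 and 170 in KO and at 22, 9, 14 and 7 in WT (2.79 ± 0.49, adjusted p = 0.000464). Socs3 was higher by 2.27 ± 0.49 (adjusted p = 0.00584, and 0.0616 without the arrays with Krt5 above 100). Socs1 was at 10, 10, 13 and 10 in KO and at 8 in every WT array, near background (0.37 ± 0.12, adjusted p = 0.122). In all, 10 of 24 genes of this list were higher and 0 lower, with a median of 0.35.

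The interferon-inducible GTPases, proteins that attack the vacuoles of intracellular microbes, had the highest median of the lists examined (3.01). Of 16 measured members 13 were higher and 0 lower, and 12 of 16 passed without the arrays with Krt5 above 100. Stretches of the upstream sequence of members are shown because the data have these genes moving together. They are from RefSeq promoter windows on GRCm38.p6, searched over the 250 bases before the start site for the ISRE motif (GAAA, then GAAA again, with any 2 bases between) and the GAS motif TTCNNNGAA on both strands. Each is written 5′ to 3′ along the gene's own strand, with matches in capitals. Tgtp1, Igtp and Irgm2 lie on chromosome 11 at chr11:48992302-48992346 (minus strand), chr11:58199499-58199543 (plus) and chr11:58214890-58214934 (plus), and in each a GAS match is followed after 2 bases by an ISRE match:
Tgtp1: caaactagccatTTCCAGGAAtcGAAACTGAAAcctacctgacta
Igtp: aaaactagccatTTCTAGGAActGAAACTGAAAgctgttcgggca
Irgm2: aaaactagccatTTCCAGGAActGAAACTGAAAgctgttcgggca
Irgm1 (chr11:48871423-48871462, minus) held 2 overlapping ISRE matches and no GAS match:
Irgm1: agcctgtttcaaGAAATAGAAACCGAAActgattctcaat
On chromosome 3, the guanylate-binding protein genes Gbp2 (chr3:142620592-142620625), Gbp2b (chr3:142594698-142594731), Gbp3 (chr3:142559987-142560026) and Gbp7 (chr3:142530218-142530304), all on the plus strand, held the ISRE in its reverse orientation (TTTC on either side of any 2 bases):
Gbp2: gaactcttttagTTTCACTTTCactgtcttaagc
Gbp2b: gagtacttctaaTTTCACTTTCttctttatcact
Gbp3: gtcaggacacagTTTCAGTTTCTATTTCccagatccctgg
Gbp7: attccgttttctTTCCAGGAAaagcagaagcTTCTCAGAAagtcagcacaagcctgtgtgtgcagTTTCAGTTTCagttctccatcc

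Of the 9 GTPase genes with a window, all 9 higher in KO, 8 held an ISRE match and 4 a GAS match. An ISRE match was found in 3.11% of the 13514 tested genes with a window, in 15.5% of the 232 genes higher in KO, in 37% of the 54 genes higher by more than 2 log2 units and in 0 of the 69 genes lower in KO. For the GAS motif the shares were 7.59%, 12.5%, 18.5% and 11.6%. Over all genes, 47 windows held both motifs, and in 8 of these they overlapped. No match was found in the window of Ifi47 or in the second window of Gbp3, which says only that these letters are not in those 250 bases. Outside this family, Ubd, Cxcl9 and Psmb9 held no match either. Cxcl10, Oas3 and Lgals9 held an ISRE match, and H2-DMb2 a GAS match. By list, an ISRE match was found in 30.3% of 33 antiviral genes, 5.88% of 17 class I genes and 8.33% of 12 class II genes with a window. A match is a description of the sequence and was not tested for binding.

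The intensities of these genes were as follows. Tgtp1 was at 2425, 3032, 2908 and 2918 in KO and at 192, 50, 22 and 40 in WT (5.67 ± 0.67, adjusted p = 9.65e-07). Iigp1 was at 1602, 2232, 2403 and 2872 in KO and at 180, 58, 23 and 42 in WT (5.27 ± 0.66). Ifi47 was at 2100, 2333, 2419 and 2564 in KO and at 250, 92, 37 and 59 in WT (4.77 ± 0.50). In all 3, WT replicate 1, the array with the highest Krt5, was the brightest WT array and still lay far below the dimmest KO array. WT replicate 1 was the brightest WT array for 31.5% of the 305 higher genes and for 28.5% of all genes.

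Gbp2b had the smallest p of all genes, at 54, 43, 40 and 40 in KO and at 9, 6, 8 and 7 in WT (2.42 ± 0.18, adjusted p = 1.51e-10). Gbp10 was at 297, 403, 376 and 552 in KO and at 35, 30, 17 and 17 in WT (4.0 ± 0.44), and Gbp8 at 66, 132, 107 and 133 against 13, 13, 13 and 11 (2.99 ± 0.30). Gbp2 differed by 3.03 ± 0.54, Gbp3 by 3.10 ± 0.45, Gbp7 by 2.68 ± 0.34, Igtp by 4.0 ± 0.52, Irgm1 by 2.47 ± 0.36 and Irgm2 by 3.09 ± 0.33, each with no overlap between groups. Among the 13 called members, the antiviral GTPase Mx1 was the one whose groups overlapped, at 13, 15, 34 and 74 in KO and at 17, 10, 8 and 7 in WT. Its call (1.35 ± 0.37, adjusted p = 0.0456) was lost without any one of KO replicates 3 and 4 and WT replicates 2, 3 and 4.

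**Figure D2:**
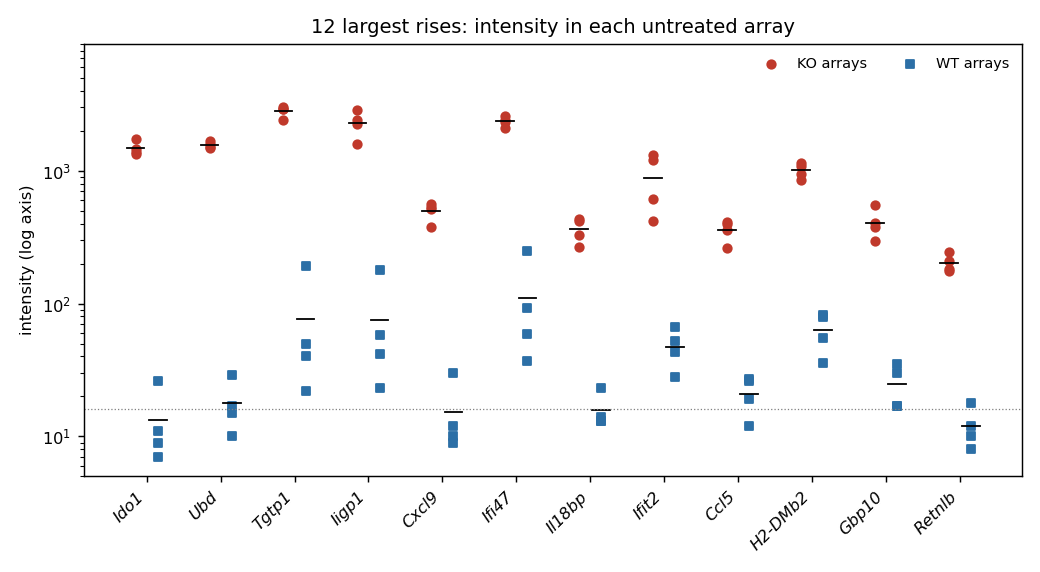
Intensity on a log axis of the 12 largest rises in each of the 4 KO arrays (red circles) and 4 WT arrays (blue squares), with the group means as black bars and an intensity of 16 as a dotted line. For each of the 12 genes all KO arrays lie above all WT arrays, and Tgtp1, Iigp1 and Ifi47 show a WT replicate 1 above the other WT arrays.

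Genes of the immunoproteasome and class I presentation, heavy chains included, were higher in KO, 14 of 20 measured members with 0 lower and a median of 1.11. The immunoproteasome subunit Psmb8 was at 2335, 2511, 2415 and 2858 in KO and at 363, 354, 261 and 252 in WT (3.03 ± 0.35, adjusted p = 9.33e-07). Psmb9 differed by 3.41 ± 0.42 and Psmb10 by 1.59 ± 0.22. Their counterparts in the constitutive proteasome did not pass: Psmb5 differed by 0.03 ± 0.10, Psmb6 by 0.04 ± 0.09 and Psmb7 by 0.17 ± 0.17. Of 14 constitutive proteasome genes 3 were higher, among them Psma1 by 0.54 ± 0.09 and Psma5 by 0.43 ± 0.10, and the median was 0.14. The proteasome activator Psme1 was at 2284 to 2546 in KO and 992 to 1162 in WT (1.15 ± 0.12), and the trimming peptidase Erap1 at 245 to 278 and 97 to 137 (1.22 ± 0.14).

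Class I heavy chains, which are part of that list and its counts, differed in the same direction. H2-D1, a classical class I gene, was bright in both groups, at 5121, 5337, 5707 and 5832 in KO and at 2531, 2988, 2693 and 2682 in WT (1.03 ± 0.13, adjusted p = 2.2e-06). The nonclassical gene H2-Q4 was at 144, 142, 158 and 143 in KO and at 13, 21, 14 and 15 in WT (3.17 ± 0.42, adjusted p = 5.5e-06). Without the arrays with Krt5 above 100, 14 members of the class I list passed as well.

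Class II presentation genes were higher in 7 of 16 measured members, with 0 lower and a median of 1.24. H2-DMb2, a chain of the factor that loads peptides on class II molecules, was at 1148, 1080, 941 and 856 in KO and at 82, 79, 36 and 55 in WT (4.04 ± 0.53, adjusted p = 4.41e-06). The invariant chain Cd74 was at 1744, 2131, 1860 and 1651 in KO and at 171, 215, 114 and 135 in WT (3.56 ± 0.47, adjusted p = 4.81e-06). H2-Aa differed by 2.61 ± 0.38, H2-Ab1 by 3.41 ± 0.56 and H2-DMb1 by 3.42 ± 0.42, with no overlap. For the 7 called class II genes the setting without the arrays with Krt5 above 100 gave the same count. Class II molecules are carried by B cells, macrophages and dendritic cells and by interferon-exposed epithelium, and markers of the first 3 cell types are given with the immune cells.

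Type I interferon-stimulated antiviral genes were higher in 29 of 40 members, with 0 lower and a median of 1.58. Among the called genes, KO replicates 3 and 4 both lay above replicates 1 and 2 for 26 of the 29, against 41.6% of all 305 higher genes and 14.9% of all genes. Ifit2, which binds viral RNA, was at 421, 611, 1309 and 1210 in KO and at 67, 52, 28 and 43 in WT (4.10 ± 0.58, adjusted p = 1.6e-05). The mean log2 level of the list, relative to the WT mean, was 1.21, 1.46, 1.90 and 1.99 in KO replicates 1 to 4, and for the GTPases it was 2.47, 2.78, 2.88 and 3.07. Oas3, which makes the activator of RNase L, was at 44, 56, 71 and 68 in KO and at 16, 15, 14 and 14 in WT (1.94 ± 0.20, adjusted p = 1.1e-07). The RNA sensor Ddx58 differed by 1.40 ± 0.20, the ubiquitin ligase Dtx3l by 1.80 ± 0.22 and the secreted lectin ligand Lgals3bp by 1.79 ± 0.21. Without the arrays with Krt5 above 100, 23 members passed.

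Ubiquitin-like modifiers and their partners were higher in 8 of 10 members, with a median of 1.71. Ubd, which encodes the modifier FAT10, was at 1499, 1681, 1494 and 1580 in KO and at 29, 15, 17 and 10 in WT (6.42 ± 0.62, adjusted p = 4.32e-08). Uba7, the enzyme that activates the modifier ISG15, differed by 1.82 ± 0.30. In tryptophan metabolism, 2 of 10 genes were higher and the median was 0.04. Ido1, the enzyme that starts the breakdown of tryptophan to kynurenine, had the largest difference of all genes, at 1345, 1462, 1378 and 1739 in KO and at 26, 11, 7 and 9 in WT (6.82 ± 0.78, adjusted p = 6.67e-07). Wars, the tRNA synthetase for tryptophan, differed by 2.01 ± 0.22, and the next kynurenine enzyme Kmo did not pass (0.61 ± 0.27, adjusted p = 0.306).

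Chemokines for activated T cells were higher. The CXCR3 ligand Cxcl9 was at 380, 519, 532 and 559 in KO and at 30, 10, 9 and 12 in WT (5.03 ± 0.88, adjusted p = 0.000397). A second ligand, Cxcl10, was at 66, 170, 98 and 198 in KO and at 21, 13, 14 and 12 in WT (2.95 ± 0.72, adjusted p = 0.0178, and 0.0914 without the arrays with Krt5 above 100), and its call ended without any one of KO replicates 2 and 4 and WT replicate 4. The third, Cxcl11, was at 8 to 13 in KO and 7 to 10 in WT and could not be read. The receptor Cxcr3 was dim, at 15 to 21 in KO and 7 to 9 in WT (0.98 ± 0.23, adjusted p = 0.0111, and 0.062 without the arrays with Krt5 above 100). Ccl5 was at 397, 355, 414 and 262 in KO and at 27, 19, 12 and 26 in WT (4.06 ± 0.54, adjusted p = 5.42e-06). In all 4 of 9 genes of this axis were higher with a median of 0.31, and 2 of them when the arrays with Krt5 above 100 were left out. Of 25 other chemokines, 3 were higher, Ccl7, Ccl8 and Cxcl16. Ccl8 was at 795, 779, 738 and 487 in KO and at 108, 114, 30 and 56 in WT (3.32 ± 0.79, adjusted p = 0.0145), a call lost without WT replicate 3 or 4.

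Genes of cell death, immune checkpoints and complement were higher in smaller numbers. Of all genes 1.78% were higher. Of 19 genes of inflammasomes and cell death 5 were higher, with a median of 0.45. The death ligand Tnfsf10 was at 161, 231, 196 and 194 in KO and at 30, 21, 23 and 26 in WT (2.91 ± 0.33, adjusted p = 6.67e-07). The necroptosis kinase Ripk3 differed by 1.60 ± 0.20, its substrate Mlkl by 1.86 ± 0.24 and the initiator caspase Casp8 by 0.83 ± 0.13. Of 13 checkpoint genes 4 were higher, with a median of 0.35, and Lgals9 among them is also counted with the antiviral genes. The ligand Cd274 (PD-L1) was at 118, 123, 152 and 222 in KO and at 26, 26, 22 and 47 in WT (2.34 ± 0.39, adjusted p = 0.000223), Lgals9 (galectin-9) differed by 2.31 ± 0.25 and the receptor Tnfrsf14 by 0.74 ± 0.12. Of 20 complement genes 2 were higher, with a median of 0.47: C2 at 204, 190, 213 and 191 in KO and at 20, 21, 11 and 23 in WT (3.41 ± 0.40), and Cfb by 0.88 ± 0.21. The call of Cfb was lost without KO replicate 3 or 4 or WT replicate 1.

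Markers of cytotoxic cells were higher in 6 of 21 measured members, against 1.78% of all genes, with 0 lower and a median of 0.32. Ccl5 among them is also counted with the chemokines. Granzyme A, Gzma, was at 164, 152, 48 and 83 in KO and at 8, 8, 8 and 9 in WT (3.45 ± 0.31, adjusted p = 1.23e-08). Granzyme B, Gzmb, was at 77, 113, 78 and 125 in KO and at 12, 14, 14 and 11 in WT (2.83 ± 0.33). KO replicate 3 had the lowest Gzma of the KO arrays, and no KO array overlapped WT for either granzyme. The granule protein Nkg7 differed by 1.63 ± 0.23 and the granule protease Ctsw by 1.69 ± 0.25.

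T cell markers were higher in 6 of 24 members, against 1.78% of all genes, with a median of 0.28. Of the 24, 12 had means below 16 in both groups. Cd3d was at 44, 40, 86 and 36 in KO and at 11, 11, 9 and 13 in WT (2.07 ± 0.41, adjusted p = 0.0018), and Cd3g at 62, 84, 64 and 44 against 19, 17, 17 and 20 (1.72 ± 0.40, adjusted p = 0.0124). Cd8a, the chain of cytotoxic T cells and of many intraepithelial lymphocytes, was at 13 to 22 in KO and 8 to 17 in WT (0.65 ± 0.19, adjusted p = 0.0684). Without the arrays with Krt5 above 100, 1 T cell marker passed, and Cd3g had an adjusted p of 0.086. With the title-code letter blocked 2 passed, and without KO replicate 2 the adjusted p of Cd3g was 0.0632.

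Other leukocyte lists varied between KO arrays. B cell and follicle genes had a median of 0.70 with 0 of 17 called. Their mean level relative to WT was 0.10, 0.90, 2.32 and -0.29 in KO replicates 1 to 4, and the B cell gene Ms4a1 was at 12, 70, 385 and 9, against 9, 19, 11 and 18 in WT. The level of B cell transcripts was thus higher in KO replicates 2 and 3 than in replicates 1 and 4, which lay near the WT mean. Plasma cell genes were higher in 4 of 14 members, against 1.78% of all genes, with a median of 1.05. The IgM heavy chain Ighm was at 192, 403, 244 and 205 in KO and at 26, 30, 14 and 14 in WT (3.57 ± 0.77, adjusted p = 0.00497), and the joining chain Jchain at 4507, 4725, 3434 and 3107 against 405, 2589, 832 and 416 (2.31 ± 0.57, adjusted p = 0.0213). Neither passed without the arrays with Krt5 above 100 (adjusted p = 0.0823 and 0.229), where 1 of the 14 genes passed. With the title-code letter blocked 0 of the 14 passed, and the call of Jchain ended without any one of KO replicates 1 and 2 and WT replicates 1 and 4.

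Monocyte and macrophage markers were higher in 4 of 27 members, against 1.78% of all genes. Of the 27 differences 26 were above 0, against 50.8% of all genes, and the median was 1.10. The macrophage protein Aif1 was at 145, 143, 203 and 111 in KO and at 27, 45, 23 and 42 in WT (2.16 ± 0.45, adjusted p = 0.00406), and the receptor Cx3cr1 at 55, 49, 83 and 47 against 21, 24, 17 and 30 (1.34 ± 0.30, adjusted p = 0.00723). The Fc receptor Fcgr4 differed by 2.0 ± 0.48 (adjusted p = 0.015, and 0.0842 without the arrays with Krt5 above 100), and its call ended without KO replicate 2 or WT replicate 3. Without those arrays 2 of the 27 passed, and the call of Cx3cr1 ended without KO replicate 3 (adjusted p = 0.0548). Dendritic cell markers had 0 of 11 called and a median of 0.10, and mast cell and eosinophil genes 0 of 17 and 0.07. Neutrophil genes had 0 of 16 called and a median of -0.07. Of all genes 2.27% were called in either direction, so 0 calls are usual for lists of this size. S100a8, abundant in neutrophils, was at 8 to 12 in KO and at 35, 10, 11 and 1101 in WT. The summed intensity of the T cell list was 414 to 677 in KO and 285 to 317 in WT, that of the macrophage list 4537 to 7179 and 1840 to 3824, and that of the B cell list 249 to 2600 and 217 to 2790. The highest B cell sum in WT was that of replicate 1, where Ly6d alone was at 2578. The part of these cells in the differences of the interferon and class II lists was not tested.

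**Figure D3:**
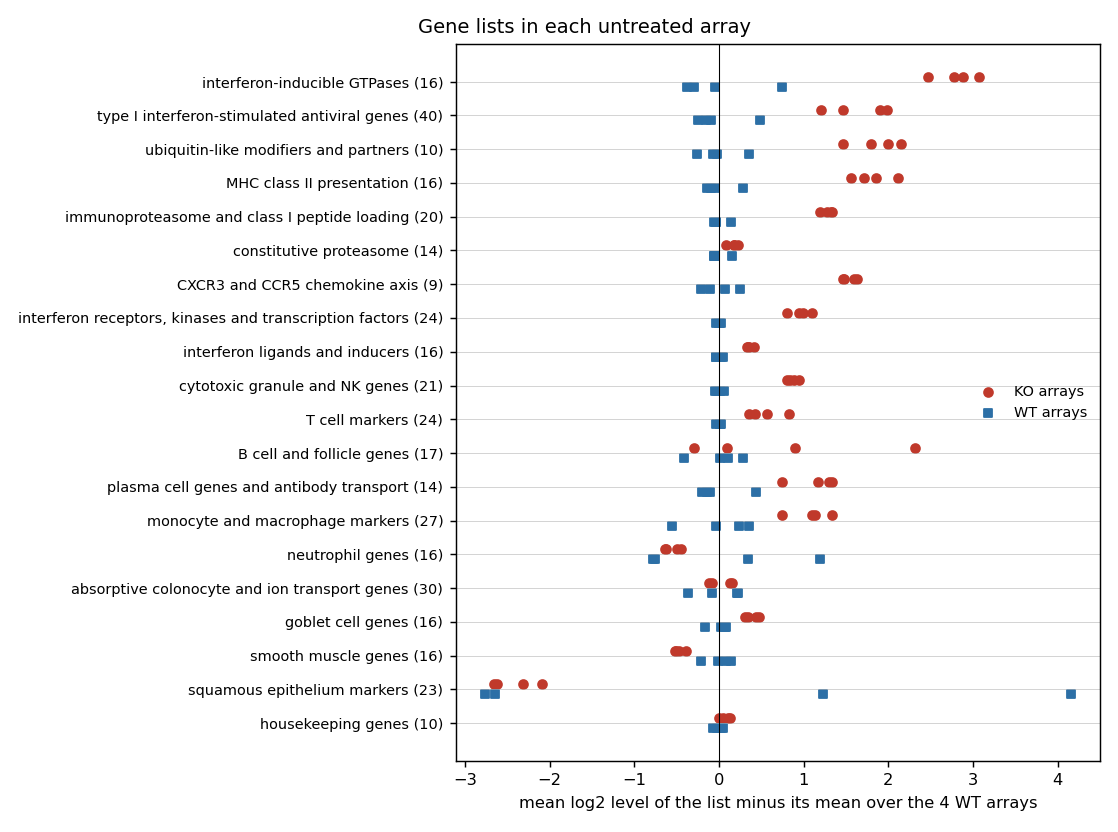
Mean log2 level of 20 gene lists in each untreated array, relative to the mean over the 4 WT arrays, for KO arrays (red circles) and WT arrays (blue squares), with the number of measured genes in parentheses. The GTPases lie at 2.47 to 3.07 in KO, the B cell list spreads from -0.29 to 2.32 in KO, and the squamous list is at 4.16 and 1.23 in WT replicates 1 and 4.

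Few epithelial genes passed the threshold, as did few genes overall. Absorptive colonocyte and ion transport genes had 0 of 30 called and a median of 0.05, stem cell genes 0 of 16 and -0.13, and proliferation genes 0 of 25 and 0.27. Differences above 0 were found for 24 of the 25 proliferation genes and 15 of the 16 goblet cell genes, against 50.8% of all genes. Of the goblet cell genes 1 was higher, Retnlb, an antibacterial protein secreted by goblet cells, at 182, 243, 208 and 176 in KO and at 18, 10, 8 and 12 in WT (4.0 ± 0.74, adjusted p = 0.000832). The antiprotease Slpi, which also acts against bacteria, was at 1722, 2077, 2780 and 2260 in KO and at 626, 335, 489 and 410 in WT (2.25 ± 0.33, adjusted p = 3.46e-05). Among 18 Reg lectins and secreted antimicrobials these 2 were called and the median was -0.05. Of 19 tight junction genes 1 was higher, Cldn23, at 320, 372, 352 and 435 in KO and at 114, 177, 205 and 179 in WT (1.15 ± 0.20, adjusted p = 0.000397, and 0.0593 without the arrays with Krt5 above 100).

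A few single xenobiotic enzymes were among the genes lower in KO, while their lists had medians near 0. Cyp2c55, a cytochrome P450 of the colon, was at 177, 106, 36 and 88 in KO and at 743, 2771, 3265 and 1897 in WT (-4.39 ± 0.91, adjusted p = 0.00328). Its lowest WT value was in replicate 1, the array with the most Krt5, so the groups lay further apart in the WT arrays with little Krt5. It was the 1 gene of 37 cytochrome P450 genes that passed, and their median was 0.03. The glutathione transferase Gsta4 was at 167, 154, 178 and 260 in KO and at 3418, 394, 796 and 1569 in WT (-2.60 ± 0.51, adjusted p = 0.00167, and -1.56 without the arrays with Krt5 above 100), and the carboxylesterase Ces2g at 35, 34, 30 and 40 against 215, 60, 76 and 92 (-1.42 ± 0.32, adjusted p = 0.00886). These 2 of 57 conjugating enzymes and transporters were lower, beside 0.485% of all genes, and the median was -0.10. Among the WT arrays, Gsta4 and Ces2g were highest in replicates 1 and 4, the WT arrays with Krt5 above 100. The call of Ces2g ended without WT replicate 1.

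Further lower genes were not highest in both of the WT arrays with Krt5, and for Slc35e3, Bcat2 and Ceacam10 those arrays were the lowest of the WT arrays. Erdr1 was at 109, 108, 47 and 65 in KO and at 975, 804, 802 and 495 in WT (-3.24 ± 0.56, adjusted p = 0.000327). The prostaglandin receptor Ptger3 was at 30, 24, 17 and 21 in KO and at 45, 89, 150 and 158 in WT (-2.03 ± 0.39). The sugar transporter family gene Slc35e3 was at 71, 43, 54 and 56 in KO and at 124, 217, 308 and 169 in WT (-1.76 ± 0.23, adjusted p = 5.54e-06), and the inhibitor chain Itih2 differed by -1.82 ± 0.28. Bcat2, the mitochondrial enzyme that starts the breakdown of branched-chain amino acids, was at 12, 12, 10 and 10 in KO and at 26, 40, 39 and 28 in WT (-1.46 ± 0.24, adjusted p = 0.000144). Ceacam10, a secreted member of its family, was at 260, 237, 101 and 125 in KO and at 264, 619, 1150 and 494 in WT (-1.71 ± 0.45, adjusted p = 0.0351), and its call ended without any one of KO replicates 3 and 4 and WT replicates 2, 3 and 4.

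Other lower genes followed the squamous arrays. Mal, a membrane sorting protein, was at 30, 23, 24 and 17 in KO and at 1428, 50, 44 and 671 in WT, high in WT replicates 1 and 4. Its difference was -0.94 (adjusted p = 0.502) when the arrays with Krt5 above 100 were left out. In that setting the differences were also no longer called for the cystatin Csta1 (-0.98, adjusted p = 0.255), the heat shock gene Hspa1b (-0.99, 0.577), Clip4 (-0.61, 0.413) and Ces2g (-0.90, 0.274), while those of Cyp2c55, Gsta4, Erdr1, Ptger3, Itih2, Slc35e3, Ceacam10 and Bcat2 were. WT replicates 1 and 4 both lay above replicates 2 and 3 for 26 of the 83 lower genes (31.3%), against 16.2% of all genes. The squamous list had 0 of 23 members called and a median of -2.49, which was 0.11 without those arrays. Smooth muscle genes had 0 of 16 called and a median of -0.41, with all KO arrays below all WT arrays for 9 of the 16, against 4.24% of all genes.

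**Figure D4:**
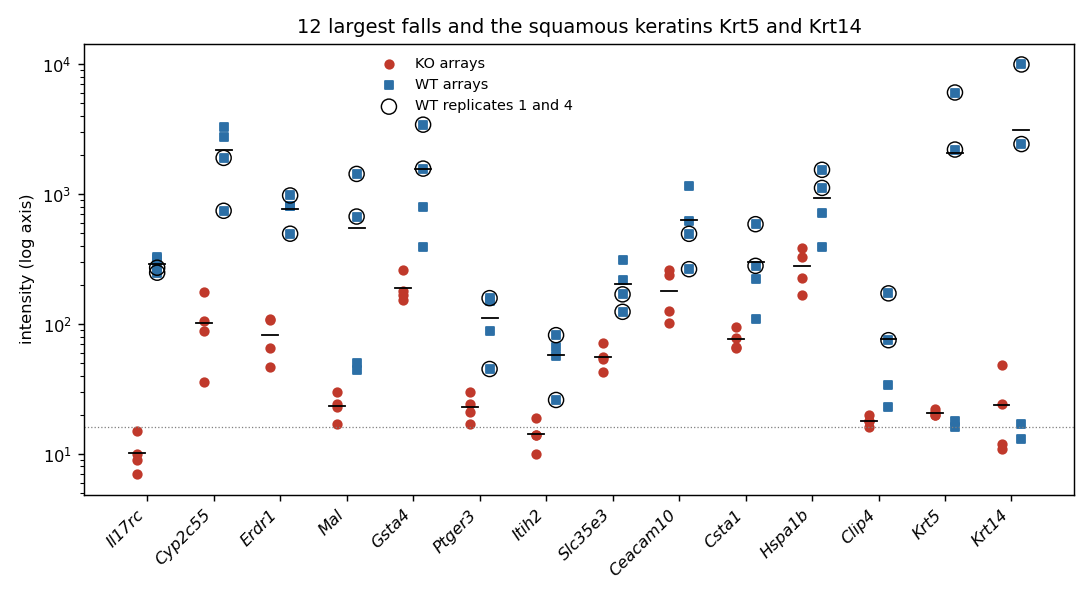
Intensity on a log axis of the 12 largest falls and of Krt5 and Krt14 in each KO array (red circles) and WT array (blue squares), with group means as black bars, an intensity of 16 as a dotted line and WT replicates 1 and 4 ringed. The ringed arrays are the highest WT arrays for Mal, Gsta4, Csta1, Clip4 and Hspa1b, as for Krt5 (6043 and 2199), and the lowest for Cyp2c55 (743 and 1897) and Ceacam10 (264 and 494).

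The same genotype comparison at the later stages uses other arrays, and its values for these genes are set beside the untreated ones. Between KO and WT 49 genes differed at day 7 (0.287%), 38 at day 15 (0.222%) and 9 in tumors (0.0526%). Il17rc intensities of 331 and 44 in the arrays labelled KO day 7 replicates 1 and 2 go against that label, so day 7 values are stated for arrays as labelled. Of the 305 genes higher in untreated KO, a difference above 0 was found for 78 (day 7), 278 (day 15) and 215 (tumors), with medians of -0.15, 0.39 and 0.07. Of the 83 lower genes, 36, 71 and 48 had a difference below 0, with medians of 0.06, -0.23 and -0.03. At day 15, 14 of the 38 called genes were also called untreated, all 14 in the same direction. At day 7 it was 8 of 49, with 4 in the same and 4 in the opposite direction, and in tumors 5 of 9, all in the same direction.

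A test of the difference itself called 404 genes between the untreated and the day 7 genotype difference (2.36%), 134 between untreated and tumors (0.784%) and 14 between untreated and day 15 (0.0819%). Of these, 234, 129 and 13 were also called in untreated colon, from the same untreated arrays. Ubd differed by 6.42 ± 0.62 in untreated colon, and by -0.70 ± 0.62 (day 7), 2.36 ± 0.62 (day 15) and 0.10 ± 0.51 (tumors) later. Gbp2b differed by 2.42 ± 0.18 untreated and by -0.15 ± 0.18, -0.04 ± 0.18 and -0.02 ± 0.15 at the later stages, and it was called in all 3 tests of the difference. Il18bp was called in all 3 as well, with 1.66 ± 0.37 at day 15, itself a called difference (adjusted p = 0.0467).

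By list, the GTPases had medians of 3.01 (untreated), -0.41 (day 7), 1.05 (day 15) and 0.17 (tumors), and the difference from the untreated value was called for 12, 2 and 12 of 16 members. The class II genes had medians of 1.24, -0.37, 0.41 and -0.07, and the type I interferon-stimulated genes 1.58, -0.08, 0.63 and 0.25. For the macrophage markers the medians were 1.10, -0.81, 0.36 and 0.12, and for the T cell markers 0.28, -0.13, 0.18 and 0.04. The few calls between untreated and day 15 depended on which arrays were included: the count ranged from 1 to 95 when 1 array was left out.

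Some differences lay on the same side of 0 at every stage. Bcat2 was lower by 1.46, 1.39, 1.06 and 1.19 log2 units at the 4 stages, with limma adjusted p-values of 0.000144, 0.0039, 0.0467 and 0.00322, and apart from Il17rc it was the only gene called at all 4. Erdr1 differed by -3.24 ± 0.56, -1.47 ± 0.56, -3.28 ± 0.56 and -1.72 ± 0.46 in the same order, called untreated and at day 15. Ceacam10 differed by -1.71 ± 0.45, -1.28 ± 0.45, -1.56 ± 0.45 and -1.95 ± 0.37, called untreated and in tumors. Creld1 differed by -0.65 ± 0.17, -0.79 ± 0.17, -0.74 ± 0.17 and -0.46 ± 0.14, called untreated and at day 7. For Bcat2, Erdr1 and Ceacam10 the difference between the untreated value and any later stage was not called.

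**Figure D5:**
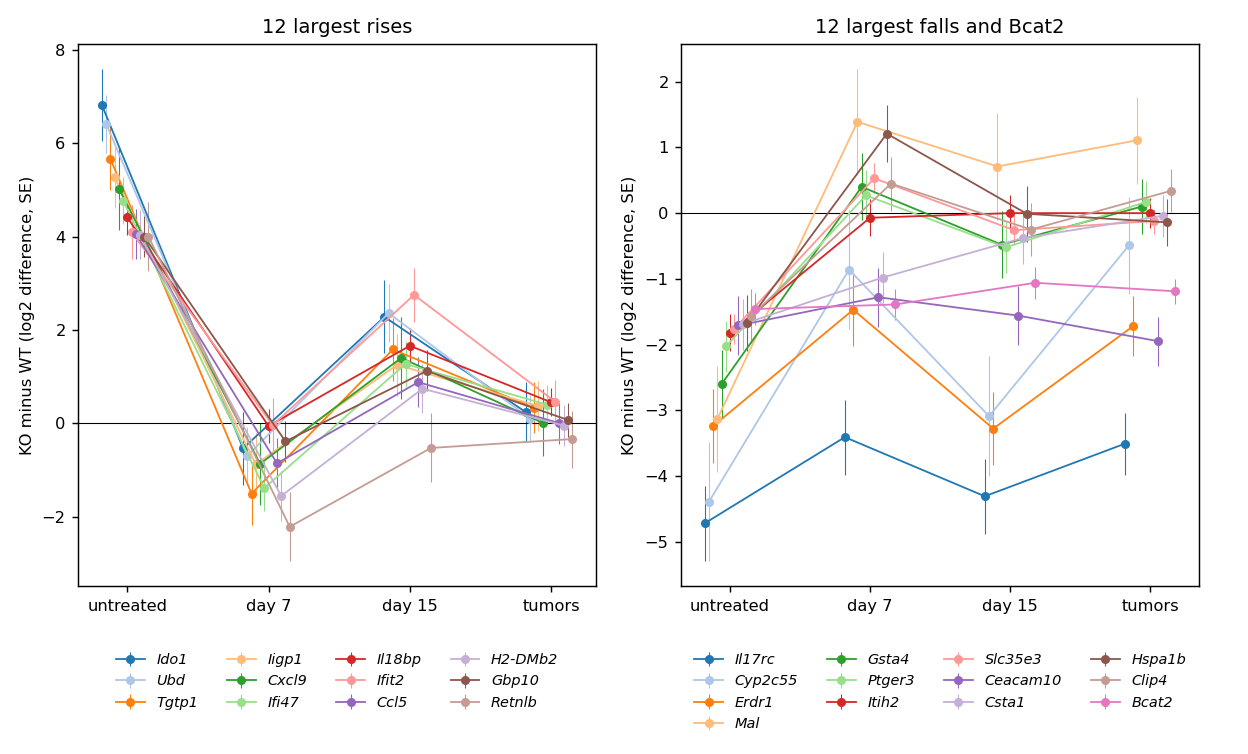
Log2 difference between KO and WT with its standard error at each stage, for the 12 largest rises (left) and the 12 largest falls with Bcat2 (right) of untreated colon. The arrays of each stage are separate and lines only join values of a gene, and the rises drop from 4.0 to 6.82 untreated to between -2.22 and -0.04 at day 7, while Il17rc, Bcat2, Erdr1 and Ceacam10 stay below 0 at all 4 stages.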

How the data were processed

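The series compared colon of KO and WT mice, 8 groups and 36 arrays. The deposited values are probe set intensities on a linear scale; background correction, summarisation and scaling by the authors are not stated in the sources used here, and the number of arrays limits the precision. Groups were taken from sample titles. Of 45037 probe sets, 28898 named 1 gene, 551 several and 15588 none in the platform annotation. Each of 17097 genes was read on its brightest probe set (mean of the 36 arrays). Values were log2(intensity + 1), quantile-normalized between arrays and fitted with limma 3.58.1 in R 4.3.3 (intensity trend) over all 8 groups. Differences between stages were contrasts of that fit. On simulated data of this comparison with 17097 genes, 87% of 100 changes of log2 size 1 and 92% of 100 of size 2 were recovered, and 3.24% of calls were false. The simulated noise was normal, independent between genes and arrays, and of the same spread per gene in all groups. It held no signal shared by whole arrays, such as that of the arrays with Krt5 above 100. The rates therefore describe the simulated setting and not the error rate of the real calls.

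Named genes were the 12 largest non-overlapping rises and falls, from each described list at most 6 members, those of smallest p, all members of the IL-17 receptor, type 17, interferon ligand, interferon receptor and sex-linked lists, 10 genes on each side of Il17rc, genes called at all 4 stages, the 8 smallest p for each difference between stages, and Il17rc, Krt5 and Krt14 as checks. The comparison and the 51 gene lists (1031 symbols, 886 measured) were chosen with earlier results of these data known. Replicate numbers did not pair the arrays: deviations of same-numbered KO and WT arrays correlated at -0.185, 0.196, -0.122 and 0.0958. Alternatives covered the added constant, normalization, a filter on dim genes, probe set choice, the intensity trend, array weights, arrays fitted, blocks by replicate number and title code, and arrays left out.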

Additional observations from a re-analysis of the deposited data

Results flagged for a closer look

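Single arrays stood apart from the other 3 of their group for some genes: the gap to the nearest array, as a share of the group's range, exceeded Dixon's 95% critical value, which chance alone gives in about 1 in 20 groups. Values below 16 are near background, where steps of a single unit can do so. The rule was run on the intensities of 140 named genes in the KO and the WT group. At that rate some of the arrays listed here would be flagged by chance. KO replicate 1 had a high intensity for Il23a (9). KO replicate 2 had a high intensity for Ifnb1 (9) and Ccl7 (187). KO replicate 3 had a high intensity for Socs1 (13), H2-Q4 (158), Cxcr3 (21), Kmo (47), Cd3d (86), Cd7 (26) and Ms4a1 (385). KO replicate 3 had a low intensity for Cxcl1 (8) and Tnfrsf14 (16). KO replicate 4 had a high intensity for Ifng (15), Vil1 (2366) and Trim31 (1260). WT replicate 1 had a high intensity for Tgtp1 (192), Cxcl9 (30), Il18bp (23), Nlrc5 (16), Igtp (289), Irgm1 (262) and Psmb6 (1301). WT replicate 1 had a low intensity for Ifngr1 (680), Ifngr2 (178) and Cxcr6 (12). WT replicate 4 had a high intensity for Il17ra (91), Lcn2 (1566), Cd274 (47), Gzma (9), S100a8 (1101) and Trim15 (37). WT replicate 4 had a low intensity for Gbp8 (11) and Ripk3 (76).

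The genotype difference in untreated colon was itself different from that at a later stage for the genes with the smallest p of each test. The untreated minus day 7 value was 2.58 for Gbp2b, 3.51 for Lgals9, 2.52 for Ripk3, 6.16 for Ifi47, 4.47 for Il18bp, 1.84 for Phf20l1, 2.49 for Lgals3bp and 3.49 for Gbp8. The Phf20l1 value is that of its brightest probe set, and its other probe sets differed by only -0.16 to 0.02 in untreated colon. The untreated minus day 15 value was 2.47 for Gbp2b, 1.89 for Ctsw, 1.91 for Lgals9, 2.75 for Il18bp, 1.96 for Ly6c1, 0.94 for H2-D1 and 0.70 for Rnaset2b. The untreated minus tumor value was 2.44 for Gbp2b, 3.95 for Il18bp, 6.32 for Ubd, 2.22 for Wars, 3.03 for Gbp8, 0.95 for Rnaset2b, 1.19 for Psme1 and 3.12 for Irgm2.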

How the results depend on the processing

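The 388 genes called in untreated colon became 894 with array weights (558 higher, 336 lower, 62.4% higher against 78.6%), 227 with a block for the title-code letter and 256 without the 7 arrays with Krt5 above 100. Leaving out each untreated array in turn gave 263 to 411. A fit to the 8 untreated arrays alone called 468 (359 higher, 109 lower). It kept 279 of the 388, with 242 of the 305 higher genes but only 37 of the 83 lower ones. With the replicate number as a block the count was 438, of which 319 were among the 388, although the numbers did not pair the arrays. For the difference between untreated colon and day 7, 404 genes became 2504 with array weights and 206 to 898 with 1 array left out (206 without WT day 7 replicate 3, 898 without WT day 7 replicate 1 and 256 without WT untreated replicate 4), and without KO day 7 replicates 1 and 2 it was 290. For day 15, 14 genes became 8 with median centring, 9 with no normalization, 24 with genes of a mean intensity of at least 16, 97 with array weights, 25 with the replicate block, 2 with the letter block, 1 with the number of the title code as a block, 8 without the arrays with Krt5 above 100 and 1 to 95 with 1 array left out. The lowest, 1, came from leaving out KO day 15 replicate 3 or 4, WT day 15 replicate 1 or 2, KO untreated replicate 3 or 4, or WT untreated replicate 3 or 4, and the highest from WT day 15 replicate 4. For tumors, 134 became 337 with array weights, 83 without the arrays with Krt5 above 100 and 103 to 167 with 1 array left out. The cause of these shifts was not tested. Of 108 named genes past the threshold, 80 passed under every alternative that gave them a value. Named genes removed by the filter on dim genes had no value there, and the fit to all probe sets was compared by count only. Of 2787 values of named genes compared, 130 fell below the threshold and 8 rose past it. Where a gene passed the threshold in either fit, 0 values reversed direction. Sign changes of genes that passed in neither fit were not counted. Without the arrays with Krt5 above 100, such changes included Krt5 (-3.54 to 0.28), Krt14 (-3.75 to 0.38) and Lcn2 (-1.94 to 0.26). Differences of genes with a mean below 16 in one group depend on the added constant, and those below 16 in both groups could not be read.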

Other observations

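Of the 388 called genes, 179 of the higher and 78 of the lower ones were in none of the 51 lists, and those described here were chosen after their values were seen. Counts by the start of a symbol also include members of the lists, so they partly repeat the calls above. Of all genes 1.78% were higher. Among symbols that start with H2-, 14 of 25 measured genes were higher and 0 lower, with a median of 1.28, including the nonclassical class I gene H2-T10 at 712, 811, 985 and 882 in KO and at 206, 288, 268 and 250 in WT (1.74 ± 0.24). Of 52 Trim genes 10 were higher, with a median of 0.09. Trim15 was at 147, 213, 260 and 427 in KO and at 17, 18, 17 and 37 in WT (3.49 ± 0.47). Of 13 Parp genes 5 were higher, with a median of 0.47. The other symbol starts counted had fewer calls: Slfn 2 of 9, Gimap 1 of 8, Ly6 2 of 12, Igk 4 of 11, Ms4a4 1 of 3 and Apol 1 of 8. The surface protein Ly6c1 was at 1991, 2074, 2517 and 2400 in KO and at 358, 480, 292 and 329 in WT (2.62 ± 0.27). The double-stranded RNA receptor Tlr3 was at 208 to 222 in KO and 87 to 108 in WT (1.13 ± 0.18).

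Further single genes also differed. Upp1, which cleaves uridine, was at 3469, 3788, 3916 and 4032 in KO and at 540, 451, 349 and 469 in WT (3.08 ± 0.46). Dpyd, which starts uracil breakdown, was at 116, 102, 67 and 92 in KO and at 139, 241, 256 and 332 in WT (-1.29 ± 0.22). Fabp6, the bile acid carrier of enterocytes, was at 820, 1146, 314 and 662 in KO and at 68, 37, 46 and 68 in WT (3.62 ± 0.56), and the bile acid exporter subunit Slc51b differed by 1.59 ± 0.38 (limma, adjusted p = 0.0153). The call of Slc51b ended with a block for the title-code letter (adjusted p = 0.125) and without KO replicate 4 (0.064). The lymphocyte integrin Itgal differed by 2.0 ± 0.36 and the homing receptor Cxcr6 by 1.19 ± 0.25, a call that ended without the arrays with Krt5 above 100 (adjusted p = 0.124) and with a block for the title-code letter (0.0772). Phf20l1 differed by 1.42 ± 0.16 on its brightest probe set, and the mean of all its probe sets differed by 0.21 (limma, adjusted p = 0.381). Its other probe sets differed by -0.16, -0.15, 0.02 and -0.05, so the difference rests on the brightest probe set alone.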
